A study of Mus musculus with 20 samples.

Results

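The BMP and TGF-beta signalling genes described here are 42 genes of 37620 listed for these libraries. The rule names them by family and uses no measured value, though the list was drawn up with earlier results of these data known. It takes known BMP, GDF, TGF-beta and activin ligands, their receptors, the Smads, the extracellular antagonists and the Id genes, and all 42 were found in the expression table. By role they are 14 ligands, 1 protease, 6 type I receptors, 4 type II receptors, 1 co-receptor, 5 receptor-regulated Smads, 1 common Smad, 2 inhibitory Smads, 4 Id genes and 4 secreted antagonists. Expression was measured by RNA sequencing of dorsal root ganglia (DRG), which hold the cell bodies of sensory neurons with their glia, taken whole from C57Bl6 mouse embryos at E18.5. Each of 10 embryos, 5 male (M1, M3, M5, M7 and M8) and 5 female (F3, F7, F8, F9 and F10), gave 1 library of lumbar DRG (L4-5) and 1 of sacral DRG (L6-S1), which made 4 groups of 5 libraries. The labels name no treatment or engineered allele, and the ganglia were not sorted, so each library holds RNA of neurons, glia, connective tissue and blood vessels together. The study asked which genes separate sacral DRG, which supply the pelvic organs, from lumbar DRG, and whether the sexes differ.

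BMPs, GDFs, activins and TGF-betas are secreted dimers that bring type I and type II receptor kinases together, and the type I receptor then phosphorylates receptor-regulated Smads. BMP receptors act on Smad1, Smad5 and Smad9, while TGF-beta and activin receptors act on Smad2 and Smad3. Both groups enter the nucleus with Smad4, and the Id genes are among the direct targets of BMP signalling. In the peripheral nervous system BMPs take part in neural crest and sensory neuron development, and TGF-betas act on neurons, Schwann cells and connective tissue.

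Values are given as RPKM, reads scaled to exon length and to library size, and differences on the log2 scale as sacral minus lumbar or female minus male, with the standard error (SE) of a limma fit over all 20 libraries that pairs the libraries of a donor. A gene was tested where its group mean reached 1 RPKM in at least 1 group, which held for 14529 genes and for 33 of the 42 members, and a difference was called at an adjusted p of at most 0.05. Whole reads could be recovered from the values, and depth ran from 19606265 to 39678967 reads per library. Mitochondrial rRNA took 17.83% to 61.05% of these reads, most in the lumbar library of M5. The neuronal label held up in each library: the 10 sensory neuron markers summed to between 376 and 1590 RPKM, and each of them averaged over 1 RPKM. The sacral library of F7 had the lowest of these sums. Among the 20 libraries it also held the highest summed RPKM of fibroblast and meninges (742) and cartilage markers (40.5). The same was true of endothelium (63.1), macrophage (32.1) and cycling cell markers (37.6). The lumbar library of F8 held the highest summed RPKM of skeletal muscle markers (232) and of erythroid markers (344) among the 20 libraries, and the highest of fibroblast and meninges markers among the lumbar ones (544). For that reason values without F8 are given below where they differ, with the number of calls without F7 beside them.

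Among the 42 members, genes of each step of the pathway were expressed. Receptors stood highest among these members. Bmpr2, the type II receptor of BMPs, averaged 76.6 RPKM over the 20 libraries, followed by the activin and BMP receptor Acvr2a at 24.2 RPKM. Id4, a helix-loop-helix protein that blocks DNA binding by its partners, averaged 23.4 RPKM and the BMP type I receptor Bmpr1a 21.3 RPKM. Bmp4 was the ligand with the highest mean, 20.1 RPKM, ahead of Bmp7 (9.51 RPKM), Gdf11 (8.82 RPKM) and Bmp3 (8.46 RPKM). Among the Smads, Smad2 averaged 16.4 RPKM and Smad4 10.6 RPKM, against 2.09 RPKM for Smad3. The inhibitory Smads were low, with means of 0.919 RPKM for Smad7 and 0.774 RPKM for Smad6. Of the 4 secreted antagonists, Fst (follistatin, which binds activins) averaged 3.24 RPKM, and Nog, Grem1 and Chrd stayed under 1 RPKM. Of 16 further secreted antagonists or modulators outside the members, 11 were high enough to be tested. The highest of these were Fstl1 (168 RPKM), Sostdc1 (75.4 RPKM) and Twsg1 (25.6 RPKM).

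**Figure D1:**
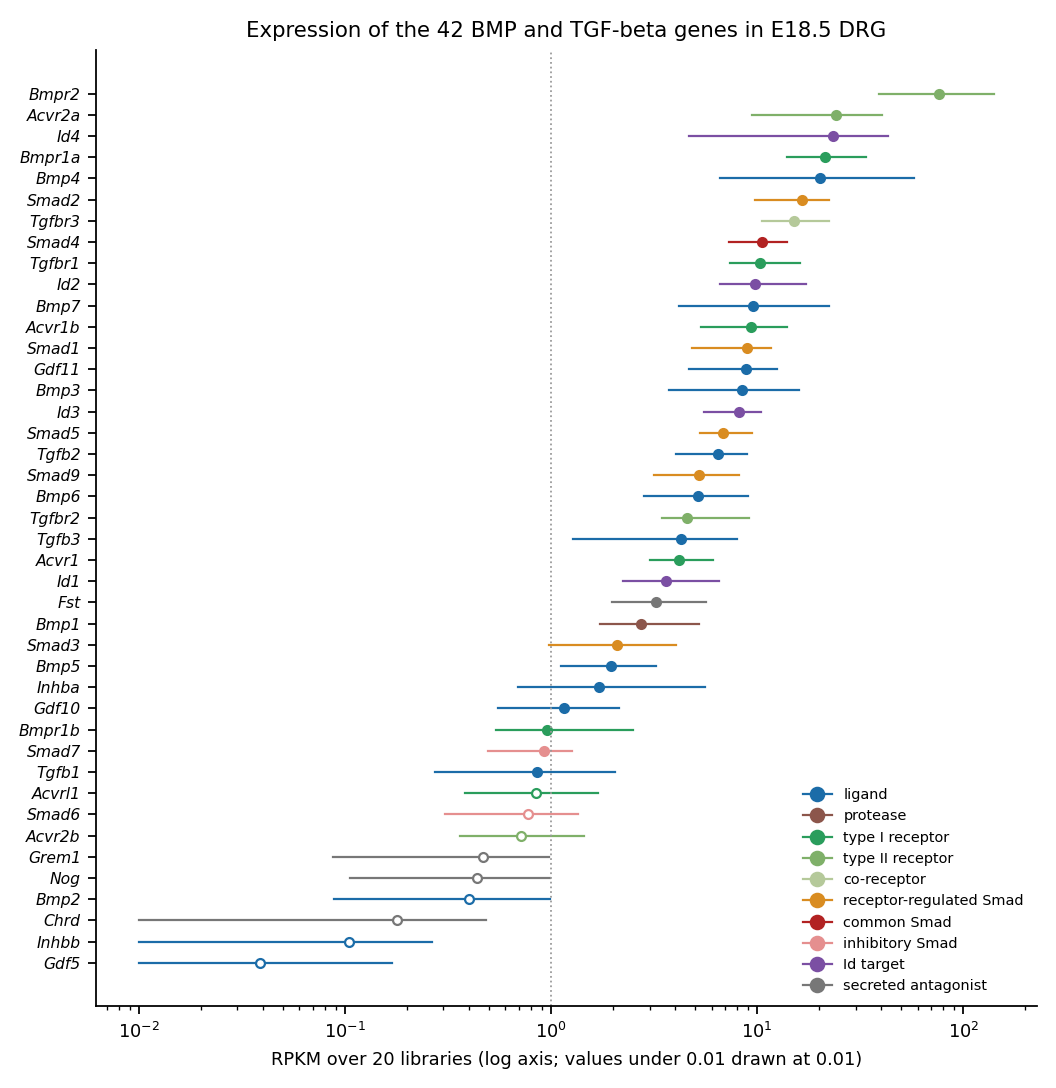
Expression of the 42 members in RPKM (log axis), 1 row per gene in order of the mean. Points are means over the 20 libraries, lines run from the lowest to the highest library, colours mark roles, and open points are the 9 genes too low to be tested. Bmpr2 lies highest at 76.6 RPKM and Gdf5 lowest at 0.0386 RPKM.

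Sacral DRG had more mRNA of 3 ligands and less of 1 Id gene than lumbar DRG. Bmp4 rose 2.24-fold, Gdf10 rose 1.81-fold and Tgfb3 rose 1.54-fold, while Id2 was 1.38-fold lower. These 4 calls were 12.1% of the 33 members tested, beside 6.73% of all genes tested, which had 978 calls. For the higher direction the members' count was 3 beside 2.7% of all genes, and for the lower direction it was 1 beside 4.03%. Gdf10 passed the filter on low values only through the sacral groups, where it is high (mean log2 RPKM -0.31 and -0.35 lumbar, 0.48 and 0.58 sacral in males and females), so its place among the 4 is not independent of the filter. The median difference over the members was 0.15 on the log2 scale, with 22 positive and 11 negative values. Over all genes tested it was -0.05, with 6108 positive and 8421 negative values. Tgfb1 and Smad7, both positive, also passed the filter only through a sacral group. In whole ganglia, fewer cells of a type and less RNA per cell cannot be told apart.

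**Figure D2:**
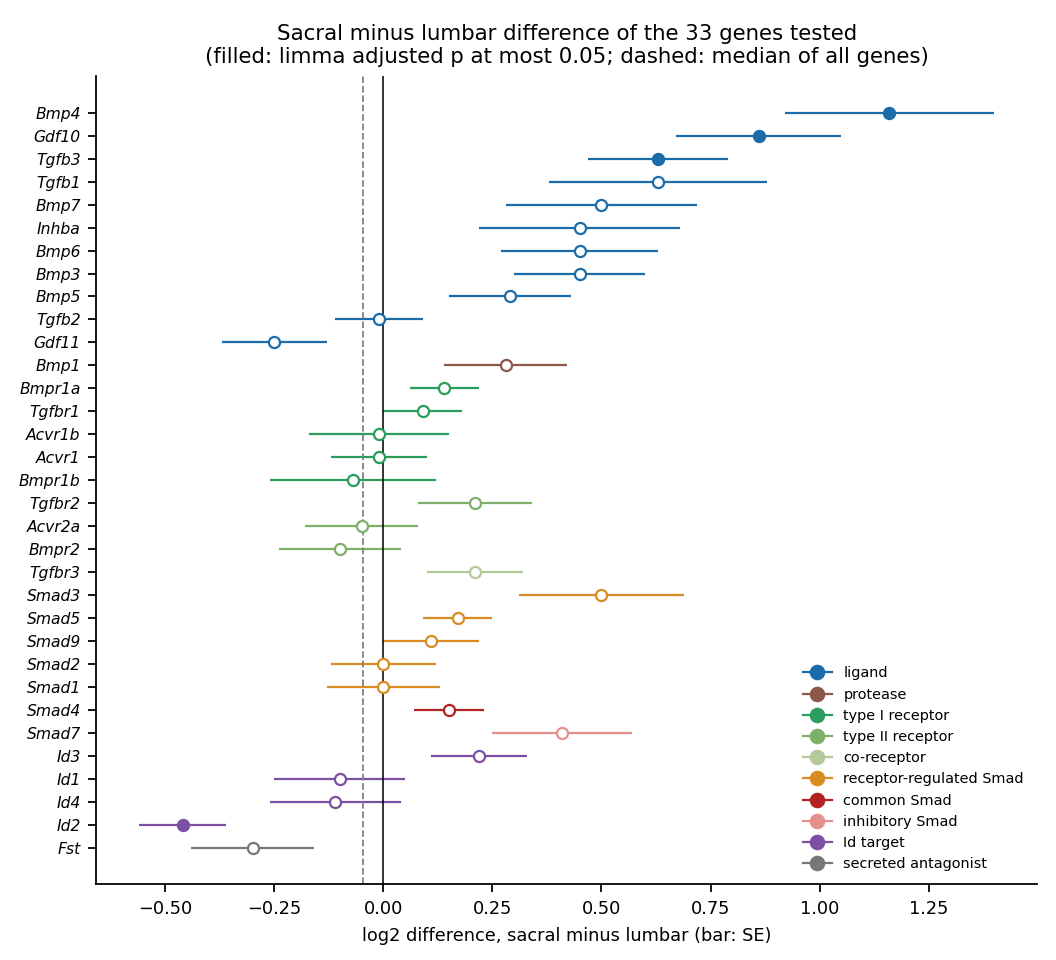
Sacral minus lumbar difference of the 33 members tested, on the log2 scale, with bars of 1 SE and members grouped by role. Filled points are the 4 members called by limma, and the dashed line is the median of all genes tested, -0.05. Bmp4, Gdf10 and Tgfb3 lie at 1.16, 0.86 and 0.63, and Id2 lies at -0.46.

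Bmp4 encodes a BMP ligand with roles in dorsal patterning and in neural crest derivatives, and lies on chromosome 14 of mm9 (47003195 to 47010344, minus strand). Lumbar RPKM of Bmp4 was 10.3, 6.74, 9.33, 12.9 and 10.6 in the males M1, M3, M5, M7 and M8, and 6.57, 17.4, 28.2, 9.99 and 10.8 in the females F3, F7, F8, F9 and F10. Sacral RPKM of Bmp4 was 28.3, 20.0, 29.3, 10.7 and 33.0 in the same males and 18.8, 57.6, 15.9, 21.9 and 44.2 in the same females. Sacral values were thus higher in 8 of 10 donors, the exceptions being M7 and F8, and the 2 ranges overlapped. The difference was 1.16 ± 0.24 (SE, 10 donors, adjusted p = 0.00754). It was 1.21 ± 0.25 in males alone (adjusted p = 0.048) and 1.12 ± 0.37 in females alone (adjusted p = 0.215). Of the exon bases of Bmp4, 4.0% overlap the gene Gm15217 on the other strand, and whether the counting kept strands apart is not given.

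Gdf10, also called BMP3b, is a BMP3-like member of the family and lies on chromosome 14 of mm9 (34736773 to 34749700, plus strand). Its lumbar RPKM was 1.41, 0.553, 0.848, 0.878 and 0.582 in the males and 0.598, 0.891, 1.03, 0.972 and 0.561 in the females, in the donor order above. Sacral RPKM was 1.31, 1.79, 1.73, 0.982 and 1.33 in males and 1.99, 2.13, 1.26, 1.16 and 1.19 in females. The sacral value was the higher in 9 of 10 donors, with M1 the exception, and the ranges overlapped through M1 lumbar and M7 sacral. The difference was 0.86 ± 0.19 (adjusted p = 0.00931), from 52 to 289 reads per library. On the log2(RPKM + 1) scale, which shrinks low genes, it was 0.44 ± 0.09 (adjusted p = 0.00883). It was 0.79 ± 0.27 in males alone (adjusted p = 0.244) and 0.92 ± 0.25 in females alone (adjusted p = 0.156). Without the donor pairing its adjusted p was 0.0508.

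Tgfb3 encodes 1 of the 3 TGF-betas and lies on chromosome 12 of mm9 (87397694 to 87419991, minus strand). Lumbar RPKM of Tgfb3 was 1.27, 2.81, 3.12, 3.91 and 3.27 in males and 2.98, 4.83, 6.35, 2.42 and 3.72 in females. Sacral RPKM of Tgfb3 was 4.26, 3.78, 3.94, 4.78 and 5.33 in males and 6.06, 7.99, 5.43, 3.83 and 5.5 in females. Sacral DRG was higher in 9 of 10 donors, and F8, which had the highest lumbar value, went the other way. The difference was 0.63 ± 0.16 (adjusted p = 0.0248). This was the least stable of the 4 calls, since it was lost without M5 (adjusted p = 0.0519), F3 (0.074), F7 (0.0609) or F10 (0.0653) without the donor pairing (0.128) and with no filter (0.0665). In males alone Tgfb3 differed by 0.70 ± 0.22 (adjusted p = 0.196) and in females alone by 0.55 ± 0.21 (adjusted p = 0.253).

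**Figure D3:**
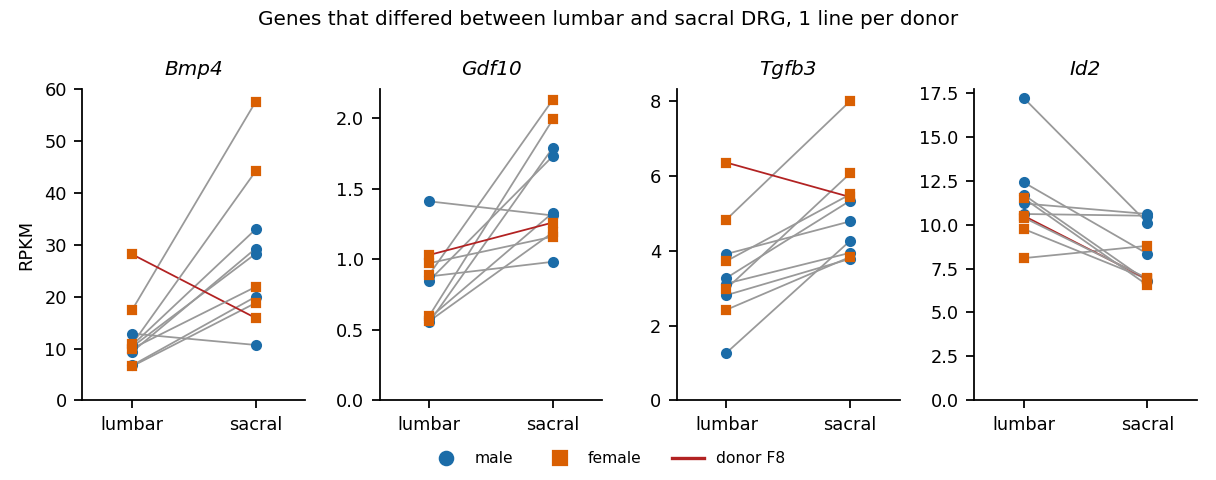
RPKM of Bmp4, Gdf10, Tgfb3 and Id2 in the lumbar and sacral library of each donor, joined by a line (circles male, squares female, red line donor F8). Bmp4 goes up in 8 of 10 donors, Gdf10 and Tgfb3 in 9 of 10, and Id2 goes down in 9 of 10.

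The other 8 ligands tested were not called at this threshold. Tgfb1, which averaged 0.854 RPKM, differed by 0.63 ± 0.25 (adjusted p = 0.127), and Bmp7 by 0.50 ± 0.22 (adjusted p = 0.164). Bmp3, an inhibitory family member that averaged 8.46 RPKM, differed by 0.45 ± 0.15 and was higher in 9 of 10 donors, with an adjusted p of 0.0753, and was called with a filter of 5 RPKM (adjusted p = 0.0364). Bmp6 (mean 5.15 RPKM) and the activin subunit gene Inhba (mean 1.70 RPKM) both differed by 0.45, with SEs of 0.18 and 0.23. Bmp5 differed by 0.29 ± 0.14, and 46.7% of its exon bases overlap Gm16662 on the other strand. Tgfb2 differed by -0.01 ± 0.10. Gdf11, which acts through activin receptors and averaged 8.82 RPKM, was the ligand with the lowest value, -0.25 ± 0.12, and was lower in 9 of 10 donors (adjusted p = 0.225). Over the 11 ligands tested, 9 values were positive and the median was 0.46 on the log2 scale, beside 6108 positive values over all 14529 genes tested. Between 9 and 10 of 11 were positive under each of the alternatives that kept all 11. Tgfb1 passed the filter on low values only through sacral females (mean log2 RPKM 0.13) and Gdf10 only through the sacral groups. Both are high there, so the ligand count and median are not independent of the filter. Bmp2 (0.398 RPKM), Inhbb (0.104 RPKM) and Gdf5 (0.0386 RPKM) were too low to be tested.

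Donor F8 had lower sacral than lumbar values for several ligands that were higher in most donors. Its own sacral minus lumbar difference was -0.82 for Bmp4, -1.16 for Bmp6, -1.19 for Inhba, -0.67 for Bmp7 and -0.23 for Tgfb3 on the log2 scale. M7 was also negative for Bmp4 (-0.27), Bmp6 (-0.30) and Bmp7 (-0.76), and M1 (-0.11), M3 (-0.05) and F9 (-0.18) were negative for Inhba. Without F8 limma called 10 members in place of 4. The 6 added were Bmp3 (0.54 ± 0.13), Bmp6 (0.65 ± 0.14), Bmp7 (0.67 ± 0.20), Inhba (0.66 ± 0.21), Smad3 (0.70 ± 0.15) and Smad7 (0.50 ± 0.16), and calls over all genes went from 978 to 1594. Array weights, which give less weight to libraries that vary more, gave 12 member calls and 2998 over all genes, the members added being Bmp3, Bmp6, Bmp7, Bmp1, Smad3, Smad5, Id3 and Fst. The median of the 11 ligands without F8 was 0.66. Leaving out F7 instead gave a ligand median of 0.44, with 3 members and 509 genes called and Tgfb3 lost.

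**Figure D4:**
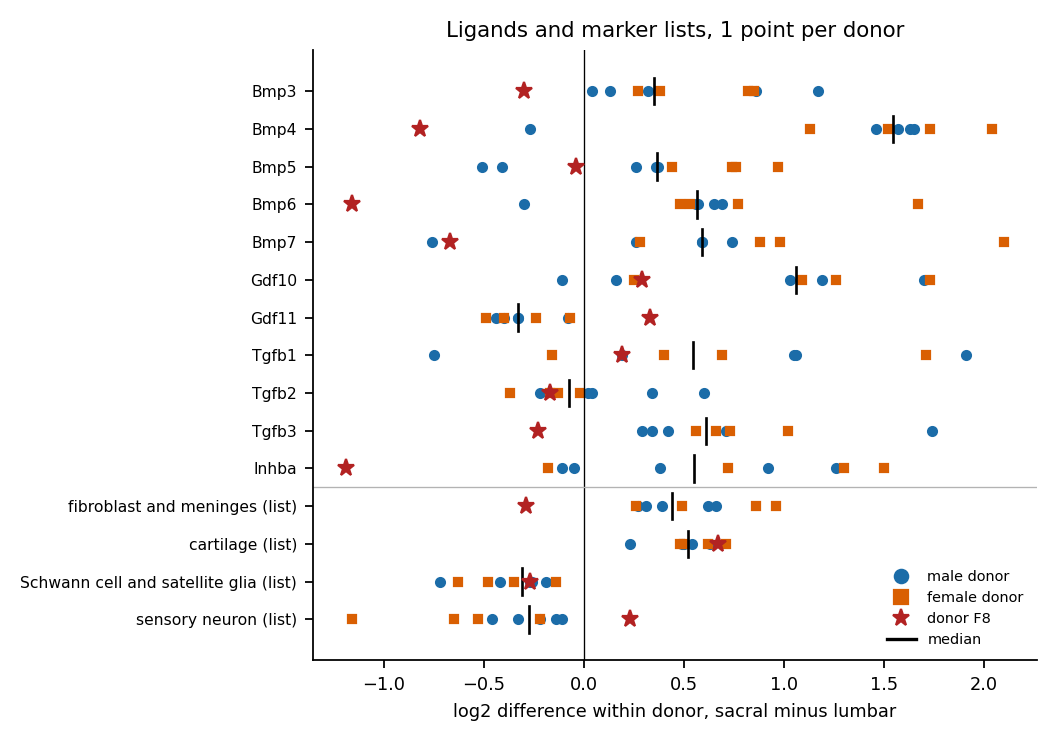
Sacral minus lumbar log2 difference within each donor for the 11 ligands tested and for the summed RPKM of 4 marker lists, 1 point per donor (circles male, squares female, star F8) with the median as a bar. F8 lies at -0.82 for Bmp4 and at -0.29 for the fibroblast and meninges list, opposite to most other donors in both. For the cartilage list F8 lies at 0.67, on the same side as the other donors.

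Markers of some cell types also differed between the spinal levels. Of 11 fibroblast and meninges markers 7 rose in sacral DRG and the rest were not called, with a median difference of 0.62, and their summed RPKM was higher in 9 of 10 donors, all but F8. The sum ran from 247 to 544 RPKM in lumbar and from 348 to 742 RPKM in sacral libraries. The cartilage list was higher in 10 of 10 donors but low, at 15.1 to 40.5 RPKM summed, with 1 of its 5 tested genes called and 7 of its 10 genes under 1 RPKM on average. Schwann cell and satellite glia markers went the other way: 5 of 11 fell, the median difference was -0.34 and the sum was lower in 10 of 10 donors (403 to 556 RPKM lumbar, 261 to 422 RPKM sacral). Of the 10 sensory neuron markers 1 fell, Snap25, with a median of -0.31 and a lower sum in 9 of 10 donors. Endothelium markers were called higher for 2 of 5 tested, Cdh5 (0.46 ± 0.12) and Tek (0.54 ± 0.15). Pecam1, Kdr and Emcn differed by -0.11, -0.04 and 0.01, and the median over the 5 was 0.01. The endothelium sum was higher in 9 of 10 donors, all but F8 (26.6 to 51.7 RPKM lumbar, 36.4 to 63.1 RPKM sacral). Cdh5, with a mean of 29.3 RPKM, made the largest part of that sum. Of 4 macrophage markers tested 1 rose, Mrc1, the median was 0.02, and the sum was higher in 8 of 10 donors, with F8 at -0.67. No pericyte and smooth muscle, skeletal muscle, erythroid or cycling cell marker was called, with medians of 0.05, -0.44, 0.31 and -0.04. Sums of these lists were higher in 2, 4, 5 and 5 of 10 donors. Bmp4 and the fibroblast sum were both lower in sacral DRG of F8, where the cartilage sum was higher (0.67). In M7 Bmp4 was lower (-0.27) and the fibroblast sum higher (0.39). The part of these cell mixtures in the differences of the ligands and of Id2 was not tested.

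Bmp1, a protease that cleaves the BMP antagonist chordin and procollagens, averaged 2.72 RPKM and differed by 0.28 ± 0.14 (adjusted p = 0.217), with higher sacral values in 9 of 10 donors. Its RPKM ran from 1.72 to 4.04 in lumbar and from 2.01 to 5.19 in sacral libraries.

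No tested receptor was called between the spinal levels in the fit reported. Among type I receptors the smallest p belonged to Bmpr1a, whose RPKM ran from 13.9 to 26.4 in lumbar and from 16.6 to 33.8 in sacral libraries and differed by 0.14 ± 0.08 (adjusted p = 0.296, higher in 8 of 10 donors). After quantile normalization Bmpr1a was called, at 0.25 ± 0.06 (adjusted p = 0.0177). The TGF-beta receptor Tgfbr1 (mean 10.3 RPKM) differed by 0.09 ± 0.09, the activin receptor Acvr1b (9.32 RPKM) and Acvr1, a BMP receptor (4.19 RPKM), each by -0.01, with SEs of 0.16 and 0.11, and Bmpr1b (0.956 RPKM) by -0.07 ± 0.19. Among type II receptors Tgfbr2 (3.44 to 7.12 RPKM lumbar, 3.68 to 9.10 RPKM sacral) differed by 0.21 ± 0.13 and was higher in 8 of 10 donors, with an adjusted p of 0.314. Bmpr2 differed by -0.10 ± 0.14 and Acvr2a by -0.05 ± 0.13. The co-receptor Tgfbr3, also called betaglycan, which presents TGF-beta to its receptors, differed by 0.21 ± 0.11 (adjusted p = 0.227) between 10.6 to 19.1 RPKM in lumbar and 11.6 to 22.2 RPKM in sacral libraries. Antisense genes overlap 7.8% of the exon bases of Acvr2a, 4.6% of those of Bmpr1a and 6.6% of those of the ligand Bmp6. Acvrl1, a receptor of endothelial cells, averaged 0.845 RPKM and was not tested.

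Acvr2b, an activin type II receptor that averaged 0.714 RPKM, missed the filter but was 0.86 ± 0.19 higher in sacral DRG when all 29049 genes with a value were fitted (adjusted p = 0.0239, higher in 9 of 10 donors, 16 to 72 reads per library). It was the 1 of the 9 low members past the threshold there, beside 1.75% of all genes. The other 8 low members had adjusted p-values from 0.109 for Grem1 upward. Grem1, an antagonist of BMP2 and BMP4, differed by 0.97 ± 0.30 with 15 to 98 reads per library, and Smad6, a BMP-inhibiting Smad, by 0.56 ± 0.21. Bmp2 differed by 0.42 ± 0.36, Nog by -0.07 ± 0.40, Acvrl1 by 0.02 ± 0.22 and Chrd by 1.15 ± 0.57. Inhbb and Gdf5 had 0 reads in some libraries, where a count of 0 allows up to 3 reads, so that their differences of 1.35 ± 0.93 and 0.05 ± 0.73 depend on the value set for a blank. Of the exon bases of Gdf5, 40.3% overlap Gm15557 on the other strand.

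The Smads did not pass the test either. Smad3, which relays TGF-beta and activin signals, differed by 0.50 ± 0.19 (adjusted p = 0.119) and was higher in 8 of 10 donors. Its RPKM ran from 0.976 to 4.02 in lumbar and from 1.61 to 3.78 in sacral libraries, with the lumbar maximum in F8, and without that donor it was called (adjusted p = 0.00681). Smad2, the partner of Smad3 in these pathways, differed by 0.00 ± 0.12. Of the BMP-regulated Smads, Smad1 (mean 8.95 RPKM) differed by 0.00 ± 0.13, Smad5 (6.82 RPKM) by 0.17 ± 0.08 and Smad9 (5.20 RPKM) by 0.11 ± 0.11. Smad4, the partner shared by both arms, ran from 7.27 to 12.2 RPKM in lumbar and from 9.07 to 13.9 RPKM in sacral libraries, a difference of 0.15 ± 0.08 (adjusted p = 0.295, higher in 7 of 10 donors). Smad7, an inhibitory Smad induced by TGF-beta, ran from 0.495 to 1.17 RPKM in lumbar and from 0.67 to 1.26 RPKM in sacral libraries. It differed by 0.41 ± 0.16 (adjusted p = 0.117, higher in 8 of 10 donors), and was called without F8 (adjusted p = 0.0445). Smad7 passed the filter on low values only through sacral males, where it is high (mean log2 RPKM 0.17). Its place among the tested members is thus not independent of the filter.

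Fst, the antagonist tested, ran from 1.98 to 5.66 RPKM in lumbar and from 2.09 to 3.22 RPKM in sacral libraries. It differed by -0.30 ± 0.14 (adjusted p = 0.201), with lower sacral values in 7 of 10 donors. With array weights it was called, at -0.52 ± 0.12 (adjusted p = 0.00573).

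The Id genes, the BMP targets of the list, did not move as a group. Id proteins lack a DNA-binding region and hold basic helix-loop-helix factors inactive. Id2 differed between the spinal levels and Id4 between the sexes. The bases before the start were sought for all Id genes of the list, from RefSeq and located by exact match in mm9. Only Id2 and Id4 gave a window with 1 match outside annotated exons, and these are shown. Id1 and Id3 gave none, so no uncalled Id gene is set beside them. Each window is the 250 bases upstream of the RefSeq start, outside annotated exons. The Id2 window borders the annotated gene, while the Id4 window ends some way before the Id4 start that GENCODE M1 gives, since the start differs between these annotations. Capitals mark GGCGCC, a GC-rich core found in BMP-responsive elements, and GTCT or AGAC, the Smad box, searched as written so that both strands are covered. The Id2 window is chr12:25780958-25781207 (minus strand) and the Id4 window chr13:48356235-48356484 (plus strand).
Id2: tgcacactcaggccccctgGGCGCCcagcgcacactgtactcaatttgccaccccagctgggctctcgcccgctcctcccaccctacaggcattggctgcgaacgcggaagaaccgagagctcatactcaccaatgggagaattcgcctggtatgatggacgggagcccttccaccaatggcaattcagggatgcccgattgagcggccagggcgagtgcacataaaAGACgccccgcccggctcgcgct
Id4: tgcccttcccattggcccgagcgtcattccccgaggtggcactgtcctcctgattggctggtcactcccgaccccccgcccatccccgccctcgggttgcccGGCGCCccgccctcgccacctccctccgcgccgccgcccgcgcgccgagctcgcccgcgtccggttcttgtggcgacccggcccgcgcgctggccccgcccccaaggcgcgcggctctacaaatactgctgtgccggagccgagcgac
The Id2 window held 1 GGCGCC and 1 Smad box, and the Id4 window 1 GGCGCC and no match to the Smad box letters. GGCGCC occurred in 9.59% of the 32841 upstream windows of this length and a Smad box in 82.9%. Among the 33 windows that belong to members these shares were 27.3% and 81.8%. These windows were drawn from all 42 members and are not those of the 33 members tested. The Id2 and Id4 windows were 62.8% and 75.6% G and C. GGCGCC holds only G and C, and windows of equal G and C content were not compared, so no enrichment is read from these shares.

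Lumbar RPKM of Id2 was 17.2, 10.6, 12.4, 11.7 and 11.2 in the males and 8.09, 9.75, 10.5, 11.5 and 10.4 in the females, in the donor order above. Sacral RPKM of Id2 was 10.1, 10.5, 8.34, 6.79 and 10.6 in males and 8.79, 6.9, 6.9, 6.56 and 6.94 in females. Sacral values were lower in 9 of 10 donors, F3 being the exception, and the ranges overlapped. Id2 fell by 0.46 on the log2 scale (SE 0.10, adjusted p = 0.00744), by 0.45 in males alone (adjusted p = 0.223) and by 0.48 in females alone (adjusted p = 0.152). The call was kept without each donor in turn. Between the spinal levels Id1 (mean 3.59 RPKM) differed by -0.10 ± 0.15, Id3 (8.11 RPKM) by 0.22 ± 0.11 and Id4 by -0.11 ± 0.15.

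Id4 was the 1 member called between the sexes in the fit reported, and this held at both spinal levels. The libraries of both levels came from the same 10 embryos, so the 2 calls are not independent. Its lumbar RPKM was 31.5, 32.5, 25.6, 39.2 and 42.7 in males and 17.4, 9.57, 9.67, 14.3 and 14.9 in females. Its sacral RPKM was 34.4, 37.9, 26.9, 43.2 and 29.2 in males and 17.7, 4.67, 13.7, 12.7 and 10.7 in females. Each male library was above each female library at both spinal levels, a separation seen in 0.771% of all genes tested at both levels, in 2.19% at the lumbar and in 3.96% at the sacral level. Lumbar means were 34.3 ± 6.72 RPKM (SD, n = 5) in males and 13.2 ± 3.44 RPKM in females, and sacral means were 34.3 ± 6.55 RPKM and 11.9 ± 4.78 RPKM. The female minus male difference was -1.40 ± 0.26 in lumbar DRG (adjusted p = 0.0158) and -1.63 ± 0.26 in sacral DRG (adjusted p = 0.00276). Id4 was 1 of 33 members called in each, beside 0.241% of all genes lower in females in lumbar and 0.723% in sacral DRG. Id4 was thus 2.64-fold lower in females in lumbar and 3.1-fold lower in sacral DRG. In lumbar DRG the call was kept in 4 of 10 fits that left out a donor, with values from -1.51 to -1.30. In sacral DRG it was kept in 10 of 10, with values from -1.81 to -1.33. The value of -1.33 was the fit without F7, whose sacral library had the lowest Id4 value.

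**Figure D5:**
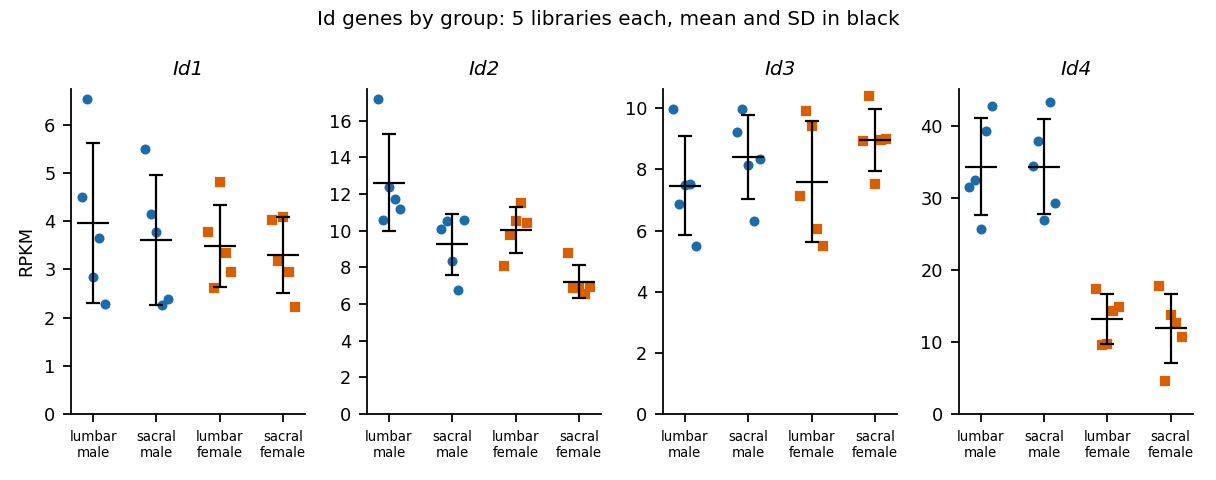
RPKM of Id1, Id2, Id3 and Id4 in the 4 groups, 1 point per library (circles male, squares female) with the mean and SD of 5 libraries in black. Id4 lies at 25.6 RPKM or more in each male library and at 17.7 RPKM or less in each female library.

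Id4 lies on chromosome 13 of mm9 (48356796 to 48359405, plus strand), an autosome, and 10.3% of its exon bases overlap the long noncoding RNA A330033J07Rik on the other strand. The numbers that end the sample labels ran in separate series for males and females, apart from 1 male lumbar label (M3) with an extra digit that lies outside both, so sex and whatever those numbers mark cannot be told apart. Of 6 erythroid markers tested, 0 in lumbar and 1 in sacral DRG were called by limma between the sexes (2 and 3 at an unadjusted p under 0.05), with median female minus male differences of 0.56 and 0.59. The medians were 0.69 and 0.49 for cartilage and 1.14 and -0.67 for skeletal muscle markers, with no gene of either list called. Schwann cell and satellite glia markers, of which 0 and 1 were called, had medians of -0.13 and -0.19 and sensory neuron markers of -0.08 and -0.29. The part of these mixtures in the Id4 difference was not tested. Id1, Id2 and Id3 had female minus male differences of -0.11, -0.32 and 0.01 in lumbar and -0.09, -0.35 and 0.10 in sacral DRG, and none was called.

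Bmpr1a and Tgfbr1 also separated the sexes without overlap in sacral DRG, though neither was called in the fit reported. With Id4 this made 3 of the 33 members tested, beside 3.96% of all genes tested in sacral DRG. Bmpr1a was 26.9 ± 5.38 RPKM in males and 17.8 ± 1.0 RPKM in females there, a difference of -0.57 ± 0.14 that just missed the threshold (adjusted p = 0.0503), and -0.43 ± 0.14 in lumbar DRG (adjusted p = 0.311). With the share of mitochondrial rRNA as a covariate it was called at both levels, at -0.41 ± 0.10 (adjusted p = 0.0359) and -0.52 ± 0.10 (adjusted p = 0.00482). Tgfbr1 was 12.4 ± 2.54 RPKM in males and 8.90 ± 0.321 RPKM in females in sacral DRG, a difference of -0.46 ± 0.16 (adjusted p = 0.179). Acvr2a differed there by -0.73 ± 0.23 (adjusted p = 0.127). The 5 type I receptors tested had a sacral median of -0.46 and the 11 ligands one of 0.36, against -0.03 over all genes. In lumbar DRG these medians were -0.16, 0.07 and 0.02. Of the ligands Tgfb1 passed the filter on low values only through sacral females. Of the type I receptors Bmpr1b passed it only through sacral males and lumbar females. Each is high in those groups, so the ligand and receptor medians between the sexes are not independent of the filter.

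The sacral minus lumbar difference was also compared between the sexes as an interaction. By limma 0 of 33 members were called, as were 0.0% of all genes, and at an unadjusted p under 0.05 there were 2 members and 470 genes. The 2 members were Bmpr1b, with an interaction of -0.85, and Smad7, with -0.67. Bmpr1b passed the filter on low values only through sacral males and lumbar females, and Smad7 only through sacral males. Each is high in those groups, so these 2 values are not independent of the filter. The smallest adjusted p over the members was 0.995. For Bmp4 the interaction was -0.09 and for Id4 -0.23 on the log2 scale.

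A longer list of 72 further pathway genes, 71 of them in the table, had 38 tested members and 7 calls between the spinal levels, 18.4% of those tested, with a median of 0.04. The same threshold called 6.73% of all genes. In sacral DRG 4 rose: Ltbp1, which holds latent TGF-beta in the matrix (0.78 ± 0.16), Ctgf, a TGF-beta target (0.80 ± 0.18), and the secreted modulators Kcp (0.74 ± 0.20) and Tsku (0.60 ± 0.15). The 3 that fell were Mstn, the ligand myostatin (-1.30 ± 0.25, 20 to 194 reads per library), the antagonist Dand5 (-0.42 ± 0.11) and Vwc2l (-0.74 ± 0.19). Mstn passed the filter only through the lumbar groups and Kcp only through sacral females, in each case where the gene is high. Kcp was higher in 10 of 10 donors and Dand5 lower in 10 of 10, a consistency that 2.85% of all genes tested showed and 0 of the 33 members tested did. Of the exon bases of Ctgf, 22.9% overlap Gm15270 on the other strand. By limma 0 of the 38 were called between the sexes in either lumbar or sacral DRG, where 3 and 5 had an unadjusted p under 0.05. Over all genes 48 and 147 were called, and 1203 and 2256 had such a p.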

How the data were processed

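RNA was sequenced from whole lumbar and sacral DRG of 10 embryos, 20 libraries in 4 groups of 5, grouped by their labels. The authors aligned reads to mm9 with Subread, counted unique reads per Ensembl gene with featureCounts, scaled with edgeR (TMM) and limma voom, and deposited log2 RPKM values. The submitters' processing notes list Subread 1.18 and 1.20.6, edgeR 3.12.1 and limma 3.26.9, and whether counting used strand is not given in the sources used here. RNA was amplified before library preparation and carried no molecular identifiers, so read limits cover counting error only.

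Read counts were recovered with GENCODE M1 exon lengths, and 98.27% of values lay no more than 0.05 from a whole number of reads. A blank was set to the log2 RPKM of 0.5 reads. Genes whose mean log2 RPKM reached 1 RPKM in at least 1 group (14529) were fitted with limma 3.58.1 (R 4.3.3, statmod 1.5.0): 4 group means, donor as a block by duplicateCorrelation (correlation 0.3417), eBayes with trend, no added pseudocount, two-sided p-values adjusted by Benjamini-Hochberg over all genes, threshold 0.05. The lumbar and sacral library of a number come from 1 embryo, so donors pair the samples. The filter used RPKM because the deposited values are not counts. The fit was tested on simulated data.

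The members, pathway and marker lists were chosen with earlier results of these data known. Members past the threshold, and the member with the smallest adjusted p of each role without one, are described in full, and the others by mean and difference. Marker lists are summed RPKM. Alternatives changed the donor block, filter, pseudocount, value of a blank, scaling, variance model, covariate or set of donors.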

Additional observations from a re-analysis of the deposited data

Results flagged for a closer look

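Of 65 sets of values examined for the 13 genes described in full (each gene's 4 groups, and its 10 differences within donors), 4 held 1 value far from the rest. Chance alone flags about 1 in 20 such sets. In sacral female DRG, F3 had an Id2 value of 3.14 on the log2 RPKM scale, above the other 4 libraries. In lumbar male DRG, M5 had a Bmp1 value of 1.67 on the log2 RPKM scale, also the highest of its group, and this library had the largest share of mitochondrial rRNA (61.05%). The other 2 were differences within donor F8, where sacral minus lumbar was -0.77 for Tgfbr2 and -1.32 for Smad3 on the log2 scale, the lowest of the 10 donors for each gene. The summed fibroblast and meninges markers of F8 were also lower in sacral DRG (-0.29), as were its skeletal muscle markers (-2.05). Its cartilage (0.67) and sensory neuron (0.23) markers were higher, and the part of these markers in the 2 differences was not tested.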

How the results depend on the processing

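The direction of each result given in full was the same under each alternative run, and the replicate block fitted as a fixed effect left 4 members called between the spinal levels (792 genes in all). With no replicate block 2 members (Bmp4 and Id2) and 154 genes were called, and array weights gave 12 and 2998. All genes called numbered 509 with no filter, and limma voom on the recovered reads called 4 members and 1014 genes. Leaving out 1 donor at a time gave 3 to 10 members and 400 to 1594 genes, with 10 and 1594 without F8, 600 genes without M1, 487 without M5, 562 without F3, 509 without F7 and 400 without F10. Quantile normalization called 437 genes higher and 410 lower in sacral DRG, against the 392 and 586 given above. Between the sexes in lumbar DRG, 2 members were called with mitochondrial rRNA share as a covariate and with array weights, Id4 and Bmpr1a, and leaving out a donor gave 0 to 1 (0 without M1, M3, M7, M8, F8 or F9). All genes called there were 91 after quantile normalization, 73 after centring, 228 with the covariate, 197 with array weights and 14 to 81 without a donor (14 without M3, 81 without M5, and past 1.5 times also without M1, M7, M8, F8 or F9), against 48. In sacral DRG members called were 2 with a filter of 5 RPKM, with log2(RPKM + 1) and after centring, 3 after quantile normalization and with the covariate, 4 with array weights and 1 to 4 without a donor (4 without M5). All genes called there were 94 with no filter, 346 after quantile normalization, 275 after centring, 705 with the covariate, 751 with array weights and 55 to 443 without a donor (443 without M5, and past 1.5 times without each donor but F3), against 147. The interaction had 0 calls under each alternative run by limma. Bmp4 was called in 10 of 10 fits without a donor and 14 of 15 others, Gdf10 in 10 and 11 of 14, Id2 in 10 and 13 of 15 and Tgfb3 in 6 and 11 of 15. The cause of these shifts was not tested. The filter on the arithmetic mean was added after seeing the data and changed no member call. Depth limits Gdf5, Inhbb and Chrd, which had 3 reads or fewer in some libraries.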
